A study of Mus musculus with 5 samples.

Results

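The 10 genes described here are the VEGF ligands (Vegfa, Vegfb, Vegfc, Vegfd and Pgf), their receptors (Flt1, Kdr and Flt4) and the neuropilins (Nrp1 and Nrp2), out of 19938 genes with a probe set of their own on the array. They were chosen by name: a probe set counted when the platform annotation gives it a single gene symbol. Figf is an older name of Vegfd. Each gene had 1 such probe set, so splice forms, among them the soluble form of Flt1 and the isoforms of VEGF-A, could not be told apart. Gene expression was measured on Affymetrix Mouse Gene 1.0 ST arrays in heart grafts of 8-week-old C57BL/6 mice, with 1 array for each graft. In the I/R group (n = 3), donor hearts were stored in University of Wisconsin (UW) solution for 18 h at 4 °C and then implanted into the abdomen of C57BL/6 recipients. In the non-I/R group (n = 2), the excised hearts were implanted at once. These were also transplanted grafts, with the blood flow of the recipient restored, and not hearts left in place. By the labels, grafts were harvested 24 h after transplantation, although day 2 is also given for these arrays. The comparison asks how the genes of this growth factor system differ between grafts with and without prolonged cold ischemia.

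The VEGF family signals from cell to cell through receptor tyrosine kinases that sit mainly on endothelium. VEGF-A binds FLT1 (VEGFR1) and KDR (VEGFR2), and KDR carries most of the signal for endothelial growth and permeability. VEGF-B and placental growth factor (PGF) bind FLT1 and not KDR, while VEGF-C and VEGF-D act on FLT4 (VEGFR3) of the lymphatic vessels and, once processed, on KDR. The neuropilins are coreceptors without a kinase of their own, which also bind class 3 semaphorins. In the heart, cardiomyocytes are a known source of VEGF-A and VEGF-B, and their capillaries carry the receptors.

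Probe sets of 3 members, Pgf, Vegfb and Nrp1, passed an unadjusted p of 0.05 between the groups, and the promoter windows of these genes are shown for that reason. The windows are those of RefSeq on the GRCm38.p6 assembly, from 250 bases before to 50 bases after an annotated start, written 5′ to 3′ on the strand of the gene, and capitals mark the core of the hypoxia response element (ACGTG or GCGTG on either strand, so that CACGT and CACGC are marked where the match is on the other strand). Pgf lies on the minus strand with its window at chr12:85177264-85177563, Vegfb on the minus strand at chr19:6987602-6987901, and Nrp1 on the plus strand at chr8:128358823-128359122.
Pgf: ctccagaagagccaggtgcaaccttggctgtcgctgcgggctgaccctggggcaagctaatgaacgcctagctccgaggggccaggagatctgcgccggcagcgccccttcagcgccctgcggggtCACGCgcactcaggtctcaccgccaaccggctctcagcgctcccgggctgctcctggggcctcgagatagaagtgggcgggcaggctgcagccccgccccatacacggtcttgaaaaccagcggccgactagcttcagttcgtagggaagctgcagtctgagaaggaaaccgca
Vegfb: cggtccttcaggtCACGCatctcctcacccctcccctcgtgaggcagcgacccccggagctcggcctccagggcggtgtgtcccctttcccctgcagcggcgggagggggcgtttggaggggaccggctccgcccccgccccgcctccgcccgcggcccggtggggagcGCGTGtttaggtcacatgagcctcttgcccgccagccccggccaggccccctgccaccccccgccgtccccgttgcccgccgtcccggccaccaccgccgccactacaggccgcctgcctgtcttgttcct
Nrp1: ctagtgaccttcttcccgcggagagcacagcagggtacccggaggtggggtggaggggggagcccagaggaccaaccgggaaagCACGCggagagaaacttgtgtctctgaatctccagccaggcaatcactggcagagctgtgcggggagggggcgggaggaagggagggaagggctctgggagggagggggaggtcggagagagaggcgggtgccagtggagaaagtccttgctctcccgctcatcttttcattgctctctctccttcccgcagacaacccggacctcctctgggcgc
Counted from the start, the Pgf window held 1 match, at positions -124 to -120. The Vegfb window held 2, at -237 to -233 and -81 to -77, and the Nrp1 window held 1, at -166 to -162. Vegfa and Pgf have 2 windows each, and the other Pgf window held no match. Over all members, 7 of 12 windows held the core, belonging to 7 of the 10 genes, against 43.8% of the 32851 mouse windows of the same length. The GC box (GGGCGG on either strand), a motif of many promoters without a TATA box, was in 10 of the 12 windows, against 35.7% of all windows. The share of G and C in the members' windows ran from 42.0% (Vegfd) to 75.3% (Vegfb), against a median of 52.7% over all windows. It was above that median in every member window but that of Vegfd, and the shares of both motifs are not adjusted for it. No match of one motif shared a base with a match of the other in the members' windows. A match describes these letters and is neither a bound site nor a cause of the values that follow.

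The deposited values are log2 signals made with RMA, and array medians lay between 6.58 and 6.65. A log2 fold change is the I/R mean minus the non-I/R mean, from limma across all 21789 probe sets with a single symbol, with Benjamini-Hochberg adjustment over all of them. At an adjusted p under 0.05 limma called none (0 of 21789, 0%), and 3265 had an unadjusted p under 0.05 (15.0%). With the methods' t-test the counts were 2 (0.00918%) and 2014 (9.24%). The smallest adjusted p by limma was 0.18 over all probe sets and 0.284 among the members. The labels give no batch, scan date or pairing and describe no animal beyond the graft, so p-values measure only the spread between these samples, which may be technical. An exact permutation test of 3 grafts against 2 has 10 splits, and its smallest two-sided p is 0.1.

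Among the 10 members, 5 had a higher and 5 a lower mean signal in the I/R grafts, against 44.0% higher, 52.5% lower and 3.47% equal over all probe sets. At an unadjusted p under 0.05, 1 member was higher (Pgf; 7.64% of all probe sets were) and 2 were lower (Vegfb and Nrp1; 7.35% of all were). With the methods' t-test, 1 member was higher (4.72% of all) and 0 were lower (4.52% of all). A 2-fold difference, a criterion of the study, at an unadjusted limma p under 0.05 was met by Pgf and by no other member. Over all probe sets it was met by 0.496% in that direction, 1.0% in the other and 1.5% in either. With the p of the methods' t-test, Pgf was again the only member, and 230 probe sets met it over all. Whatever the p, 1.9% of all probe sets had means that far apart. Groups did not overlap for 4 members (31.9% of all probe sets): Pgf and Nrp2 lay above (15.8% of all probe sets did) and Vegfb and Nrp1 lay below (16.2% of all did). The counts of 1 higher, 2 above and 2 below among 10 members were near these shares. The count of 2 lower was above its share, and single genes weigh heavily in all of these counts. The median log2 fold change was -0.04 over the members and -0.01 over all probe sets, and the median absolute value was 0.31 over the members and 0.10 over all. For 7 members the difference in means was under 1.5-fold.

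**Figure D1:**
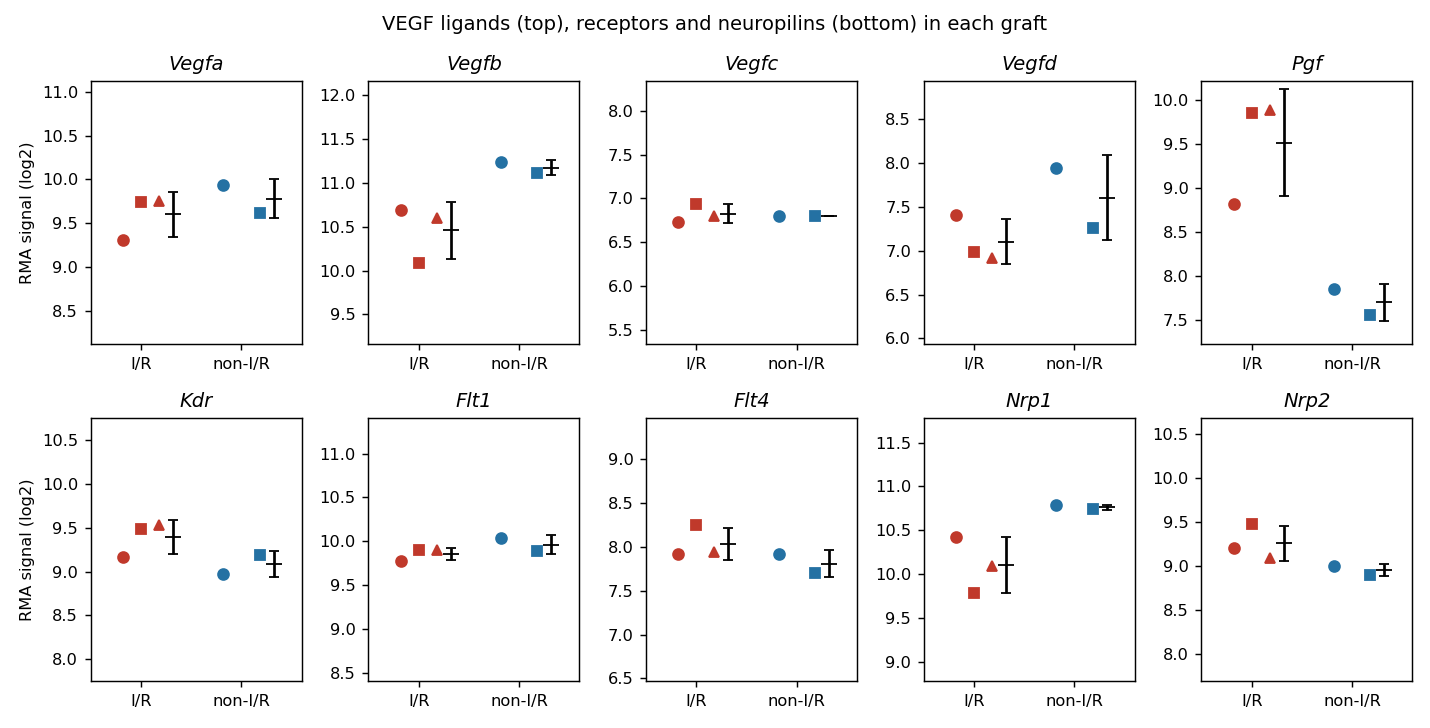
Log2 signal (RMA) of each member in each graft, with I/R grafts in red left of non-I/R grafts in blue, one symbol per graft, and the group mean ± SD in black. Pgf is above both non-I/R grafts in all 3 I/R grafts, Vegfb and Nrp1 are below them, and Nrp2 is above them by a smaller distance.

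Pgf, a ligand of FLT1, had the largest fold change of the 10 members. Its log2 signal was 8.82, 9.85 and 9.89 in I/R 1, I/R 2 and I/R 3, against 7.85 and 7.55 in non-I/R 1 and non-I/R 2. All 3 I/R grafts were above both non-I/R grafts, and I/R 1 lay about midway between the other I/R grafts and the non-I/R grafts. The means were 9.52 ± 0.61 in I/R grafts and 7.70 ± 0.21 in non-I/R grafts (SD, n = 3 and 2). The log2 fold change was 1.82 (SE 0.42, 95% interval 0.64 to 3.0), a 3.53-fold higher mean signal, with an unadjusted p of 0.0132 and an adjusted p of 0.284 by limma. By absolute fold change the probe set ranked 40 of 21789. The exact permutation p was 0.1, the smallest this design allows. The unadjusted call was lost without non-I/R 1 (log2 fold change 1.97, limma adjusted p = 0.593) and without non-I/R 2 (1.67, limma adjusted p = 0.326), where a single non-I/R graft is left and is assumed to vary like the I/R grafts.

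Vegfb, the other ligand that binds FLT1 and not KDR, ran the opposite way. Its log2 signal was 10.69, 10.09 and 10.60 in I/R 1, I/R 2 and I/R 3, against 11.23 and 11.11 in non-I/R 1 and non-I/R 2. Each I/R graft was below both non-I/R grafts, and I/R 2 was the lowest. The means were 10.46 ± 0.32 in I/R grafts and 11.17 ± 0.084 in non-I/R grafts (SD, n = 3 and 2). The log2 fold change was -0.71 (SE 0.22, 95% interval -1.33 to -0.10), a 1.64-fold lower mean signal, with an unadjusted p of 0.0328 and an adjusted p of 0.306 by limma, and the exact permutation p was 0.1. The unadjusted call was lost with the methods' t-test (p = 0.0621; by exact permutation 0.1) and without I/R 3, non-I/R 1 or non-I/R 2 (unadjusted limma p = 0.0668, 0.154 and 0.112). In bulk tissue such as this, fewer cells of a type and less RNA per cell cannot be told apart. Cardiomyocyte markers ran the same way as Vegfb: all 12 measured, led in signal by Tnnt2, were lower in mean signal in I/R grafts (52.5% of all probe sets were). At an unadjusted limma p under 0.05, 10 of these markers were lower (7.35% of all probe sets), and their median log2 fold change was -0.52. Their mean log2 signal was 12.27, 12.15 and 12.48 in I/R 1 to 3, against 12.98 and 12.87 in non-I/R 1 and 2. Set against that mean within each graft, Vegfb was at -1.57, -2.06 and -1.88 in the I/R grafts, against -1.75 and -1.75 in the non-I/R grafts. The groups then overlapped, with a difference of -0.09 (exact permutation p = 0.7).

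Vegfa, the main ligand of KDR, did not separate the groups. Its log2 signal was 9.31, 9.74 and 9.76 in I/R 1, I/R 2 and I/R 3, against 9.94 and 9.62 in non-I/R 1 and non-I/R 2. Non-I/R 1 was the highest and I/R 1 the lowest, with the other 3 grafts between them. Its log2 fold change was -0.17 (SE 0.20, 95% interval -0.74 to 0.39; limma adjusted p = 0.656). Without non-I/R 1 it was -0.018, without I/R 1 -0.027, and without non-I/R 2 -0.33. The interval leaves room for a mean signal up to 0.74 lower or 0.39 higher on the log2 scale. Relative to the cardiomyocyte markers, Vegfa was at -2.96, -2.40 and -2.72 in the I/R grafts, against -3.05 and -3.24 in the non-I/R grafts. Each I/R graft was above both on this scale, by 0.45 in the mean (exact permutation p = 0.2). Vegfa itself had a log2 fold change of -0.17, and subtracting markers that were lower in I/R grafts turned its sign.

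Vegfc and Vegfd, the ligands of the lymphatic receptor FLT4, did not pass a test. Vegfc was at 6.73, 6.94 and 6.80 in I/R 1, I/R 2 and I/R 3, against 6.80 and 6.80 in non-I/R 1 and non-I/R 2. I/R 3 and both non-I/R grafts hold the same number in the deposited table, so the non-I/R grafts had an SD of 0. Vegfc had a fitted log2 fold change of 0.02 (SE 0.072, 95% interval -0.18 to 0.23; limma adjusted p = 0.873). Ties of this kind touched 11715 probe sets, 757 of them over all 5 arrays. Among the members they also touched Flt1 (I/R 2 and I/R 3) and Flt4 (I/R 1 and non-I/R 1), and their cause was not tested.

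Vegfd was at 7.40, 6.99 and 6.92 in I/R 1, I/R 2 and I/R 3, against 7.95 and 7.26 in non-I/R 1 and non-I/R 2. I/R 1 was above non-I/R 2, so the groups overlapped, and the 2 non-I/R grafts were farther apart (0.68) than any 2 I/R grafts (0.48). Vegfd had a log2 fold change of -0.50 (SE 0.28, 95% interval -1.30 to 0.30; limma adjusted p = 0.477). Without non-I/R 1 it was -0.16, and without non-I/R 2 it was -0.84, so its size depended on which non-I/R graft was kept. Fibroblast markers, 10 in all, had a mean log2 signal of 9.86, 9.71 and 9.65 in I/R 1 to 3, against 10.11 and 9.80 in non-I/R 1 and 2. This is the same order of the grafts as for Vegfd. Macrophage and monocyte markers, 11 measured, had a mean of 9.99, 9.76 and 9.49 in I/R 1 to 3, against 10.12 and 9.57 in non-I/R 1 and 2. Their order differs from that of Vegfd only in I/R 2 and non-I/R 2. The part of either cell type in the values of Vegfd was not tested.

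KDR is the receptor through which VEGF-A drives growth and permeability of endothelium. Kdr was at 9.17, 9.49 and 9.53 in I/R 1, I/R 2 and I/R 3, against 8.98 and 9.19 in non-I/R 1 and non-I/R 2. I/R 2 and I/R 3 were above both non-I/R grafts, and I/R 1 lay just below non-I/R 2. For Kdr the log2 fold change was 0.31 (SE 0.15, 95% interval -0.11 to 0.73; limma adjusted p = 0.427). Without I/R 1 it was 0.43 and passed the unadjusted threshold (limma adjusted p = 0.329), and without non-I/R 1 it was 0.21 (limma adjusted p = 0.92).

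FLT1 binds VEGF-A, VEGF-B and PGF and has a soluble form that traps them. Flt1 was at 9.78, 9.90 and 9.90 in I/R 1, I/R 2 and I/R 3, against 10.04 and 9.88 in non-I/R 1 and non-I/R 2. It had the narrowest range of the members apart from Vegfc, and the groups overlapped. For Flt1 the log2 fold change was -0.10 (SE 0.071, 95% interval -0.30 to 0.10; limma adjusted p = 0.491). Without non-I/R 1 it was -0.027, and without non-I/R 2 it was -0.18.

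FLT4, the receptor of VEGF-C and VEGF-D, is found mainly on lymphatic endothelium in the adult. Flt4 was at 7.92, 8.24 and 7.94 in I/R 1, I/R 2 and I/R 3, against 7.92 and 7.70 in non-I/R 1 and non-I/R 2. I/R 2 was the highest graft and non-I/R 2 the lowest. For Flt4 the log2 fold change was 0.23 (SE 0.14, 95% interval -0.17 to 0.63; limma adjusted p = 0.478). Without non-I/R 2 it was 0.12. Of 6 measured lymphatic markers, led in signal by Pdpn, 5 were lower in mean signal in I/R grafts (52.5% of all probe sets were). In each direction, 1 of these markers passed an unadjusted limma p of 0.05 (7.64% of all probe sets upward and 7.35% downward). Their mean log2 signal was 8.36, 8.46 and 8.29 in I/R 1 to 3, against 8.76 and 8.40 in non-I/R 1 and 2. Those that passed were Prox1, a transcription factor of lymphatic endothelium that cardiomyocytes also make (log2 fold change -1.03, SE 0.19), and Pdpn, podoplanin (0.79, SE 0.20).

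The neuropilins differed in direction. Nrp1, the coreceptor that pairs with KDR for VEGF-A, was at 10.42, 9.78 and 10.10 in I/R 1, I/R 2 and I/R 3, against 10.78 and 10.74 in non-I/R 1 and non-I/R 2. All 3 I/R grafts were below both non-I/R grafts, which differed by 0.044. The means were 10.10 ± 0.32 in I/R grafts and 10.76 ± 0.031 in non-I/R grafts (SD, n = 3 and 2). The log2 fold change was -0.66 (SE 0.21, 95% interval -1.26 to -0.06), a 1.58-fold lower mean signal, with an unadjusted p of 0.0381 and an adjusted p of 0.314 by limma. The exact permutation p was 0.2. The unadjusted call was lost with the methods' t-test (p = 0.0698; by exact permutation 0.2) and without I/R 3, non-I/R 1 or non-I/R 2 (unadjusted limma p = 0.105, 0.157 and 0.139).

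Nrp2, the coreceptor known for VEGF-C and for class 3 semaphorins such as SEMA3F, was at 9.21, 9.48 and 9.08 in I/R 1, I/R 2 and I/R 3, against 8.996 and 8.90 in non-I/R 1 and non-I/R 2. All 3 I/R grafts were above both non-I/R grafts, with I/R 3 and non-I/R 1 nearest to each other. The log2 fold change was 0.31 (SE 0.14, 95% interval -0.08 to 0.70; limma adjusted p = 0.407). Without I/R 2 it was 0.20. The exact permutation p was 0.2.

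**Figure D2:**
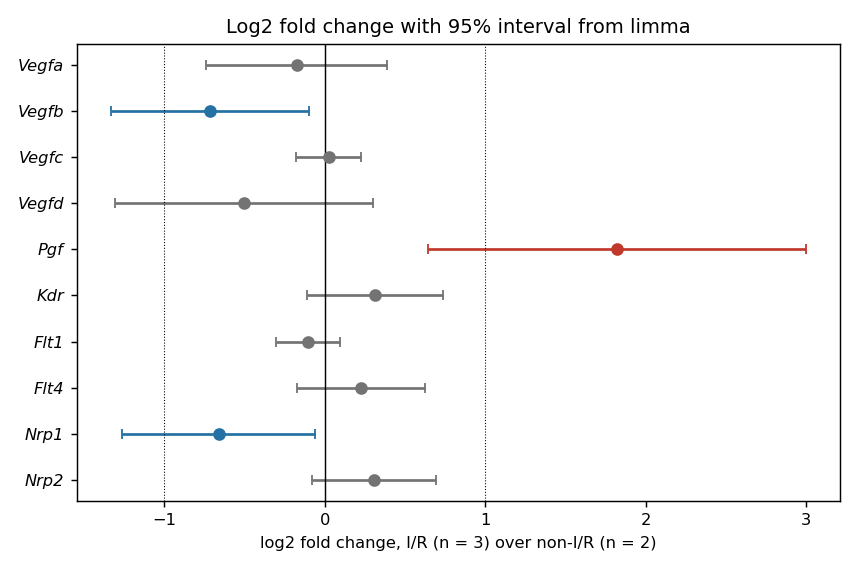
Log2 fold change of each member, I/R minus non-I/R, with its 95% interval from limma; red and blue mark an unadjusted p under 0.05 in the higher and lower direction, and dotted lines mark a 2-fold difference. The intervals of Pgf, Vegfb and Nrp1 leave out 0, and only the estimate of Pgf lies beyond a dotted line.

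Differences between members within a graft are free of a shift shared by the array, and 8 such pairs were compared (exact permutation tests, smallest p 0.1). For no pair can the size of a single value be read, since probe sets differ in brightness, so only the change of a difference between groups is given. Pgf minus Vegfa was -0.49, 0.11 and 0.13 in I/R 1, I/R 2 and I/R 3, against -2.09 and -2.07 in non-I/R 1 and non-I/R 2. All 3 I/R grafts were higher, by 2.0 in the mean (exact p = 0.1). The same held for Pgf minus Vegfb (2.53 higher, exact p = 0.1) and for Pgf minus its receptor Flt1 (1.92 higher, exact p = 0.1). A pair's difference between groups is that between the log2 fold changes of its members. The Pgf pairs thus restate that of Pgf in large part and are not separate tests of it. Flt1 minus Kdr, the genes of 2 receptors of VEGF-A, was 0.61, 0.41 and 0.37 in the I/R grafts, against 1.06 and 0.70 in the non-I/R grafts. It was lower in each I/R graft (difference -0.42, exact p = 0.1). Nrp2 minus Nrp1 was -1.22, -0.31 and -1.01 in the I/R grafts, against -1.79 and -1.84 in the non-I/R grafts, and was higher in all 3 I/R grafts (0.97, exact p = 0.1). Vegfa minus Vegfb (0.54, exact p = 0.3), Vegfc minus Vegfd (0.53, exact p = 0.3) and Flt4 minus Kdr (-0.09, exact p = 0.7) overlapped between groups. Adjusted over the 8 pairs, no p could pass 0.05, since none can be below 0.1.

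Members were also set against markers of abundant cell types of the heart, with a single list for all ligands and another for all receptors and neuropilins, whichever cells make each of them. The receptors and neuropilins were set against 21 endothelial markers, led in signal by Fabp4, whose mean log2 signal was 9.92, 10.09 and 10.004 in I/R 1 to 3, against 9.97 and 9.96 in non-I/R 1 and 2. Of those markers 12 were higher and 9 lower in mean signal (44.0% and 52.5% of all probe sets), and the median was 0.11. In each direction, 1 of them passed an unadjusted limma p of 0.05 (7.64% of all probe sets upward and 7.35% downward). Relative to that mean, Nrp1 was at 0.50, -0.31 and 0.09 in the I/R grafts, against 0.81 and 0.78 in the non-I/R grafts, a difference of -0.70 (exact permutation p = 0.2). Nrp1 was not set against the cardiomyocyte markers (median log2 fold change -0.52), as Vegfb was. Those markers were lower in the I/R grafts, as was Nrp1 (log2 fold change -0.66), and subtracting them would take up most of its difference. The difference of Nrp1 on the endothelial scale thus does not set it apart from Vegfb. The endothelial mean hardly differed between the groups, so the endothelial scale leaves the difference in Nrp1 about as it was. Flt1 was lower in all 3 I/R grafts on this scale (-0.14, exact permutation p = 0.1), Kdr (0.27, exact p = 0.2) and Nrp2 (0.27, exact p = 0.2) were higher in all 3, and Flt4 overlapped (0.19, exact p = 0.3). Without non-I/R 1 the difference was -0.070 for Flt1 and 0.16 for Kdr, and without non-I/R 2 it was -0.22 for Flt1 and 0.084 for Flt4. Among the ligands, set against the cardiomyocyte markers, Pgf was at -3.45, -2.29 and -2.58 in the I/R grafts, against -5.13 and -5.32 in the non-I/R grafts, a difference of 2.45 (exact permutation p = 0.1). Subtracting these markers, which were lower in the I/R grafts, adds the same amount to the difference of every ligand. For Vegfc, whose own log2 fold change was 0.02, the difference of 0.65 on this scale is therefore that of the markers. Vegfd overlapped (0.13, exact p = 0.7).

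**Figure D3:**
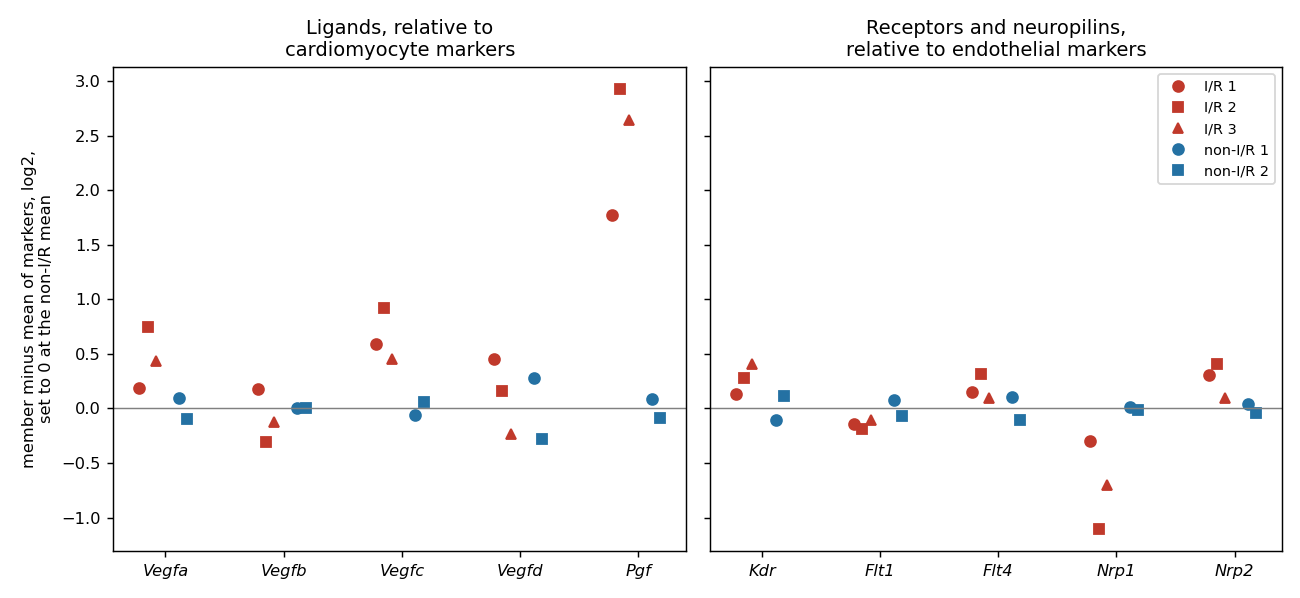
Each member's log2 signal minus the mean of a list of markers in the same graft (cardiomyocyte markers for all ligands, endothelial markers for all receptors and neuropilins), set to 0 at the non-I/R mean, with I/R grafts in red and non-I/R grafts in blue. In the I/R mean, Pgf stands 2.45 above and Vegfb is near 0 on the cardiomyocyte scale, and Nrp1 is 0.70 below on the endothelial scale. The scales differ, so the panels do not compare Vegfb with Nrp1.

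Markers of infiltrating and atrial cells also differed between grafts. Of 9 neutrophil markers, led in signal by Cxcr2, 8 were higher in mean signal in I/R grafts (44.0% of all probe sets were). At an unadjusted limma p under 0.05, 5 of these markers were higher (7.64% of all probe sets), and their median was 0.86. Their mean was 9.001, 9.67 and 9.36 in I/R 1 to 3, against 8.44 and 8.61 in non-I/R 1 and 2, so the grafts that were high in Pgf, I/R 2 and I/R 3, were also high in these. Their part in the result for Pgf was not tested. Atrial markers, led in signal by Nppa, were highest in non-I/R 1 (10.20) and I/R 2 (9.86), and lowest in non-I/R 2 (7.47), with I/R 1 at 8.03 and I/R 3 at 8.87. Without non-I/R 1 and I/R 2 together, a single non-I/R graft is left, so only the size of a difference is given. The log2 fold change of Pgf was then 1.80 (1.82 with all grafts) and that of Nrp1 was -0.48 (-0.66 with all grafts). That of Vegfb was -0.47, and that of Flt4 was 0.23. The 5 measured endocardial markers, led by Plvap, had a mean of 7.36, 6.80 and 7.05 in I/R 1 to 3, against 8.02 and 7.39 in non-I/R 1 and 2, and their median was -0.19. The remaining lists had medians of -0.10 for 10 pericyte and smooth muscle markers, led by Acta2, -0.20 for 10 fibroblast markers, led by Dcn, -0.02 for 11 macrophage and monocyte markers, led by Lyz2, 0.0015 for 7 mast cell and platelet markers, led by Ppbp, and -0.02 for 4 mesothelial markers, led by Wt1. The part of these cells in the members' values was not tested.

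The other genes of the pathway were taken from lists written for this comparison, with earlier results of these data known. Their counts are set beside the same shares of all probe sets, and an excess over a share is only a description. Of the 8 lists, the highest median log2 fold change, 0.44, was that of genes known to be induced by VEGF in endothelium. Mean signals of 20 of the 26 measured were higher in I/R grafts and those of 6 were lower. By limma's unadjusted p, 8 passed 0.05 upward and 0 downward, against 7.64% and 7.35% of all probe sets. Angpt2, an antagonist of the TIE2 receptor stored in endothelium, was at 8.15, 8.60 and 8.29 in I/R 1 to 3, against 6.90 and 7.17 in non-I/R 1 and 2 (log2 fold change 1.32, SE 0.18, limma adjusted p = 0.282). Apln, a ligand made by sprouting endothelium, had 1.75 (SE 0.31, limma adjusted p = 0.282), and Plaur, the receptor of urokinase, had 1.27 (SE 0.39, limma adjusted p = 0.306). These 3 met the 2-fold criterion. Dll4, the Notch ligand of tip cells, had 0.85 (SE 0.13), and Plau, urokinase itself, had 0.84 (SE 0.21). The mean of the list was 8.58, 8.94 and 8.80 in I/R 1 to 3, against 8.29 and 8.32 in non-I/R 1 and 2. The I/R grafts were in the same order for the neutrophil, the endothelial, the atrial, and the mast cell and platelet markers, whose part was not tested. Many genes of this list also respond to signals other than VEGF and are made by other cells, and which cells gave the signal cannot be told from bulk tissue.

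Among 17 partners and phosphatases of the VEGF receptors, mean signals were higher for 15 and lower for 2, with 7 past an unadjusted p of 0.05 upward and 0 downward, and the median was 0.29. The mean of this list was 9.87, 10.14 and 10.01 in I/R 1 to 3, against 9.72 and 9.72 in non-I/R 1 and 2. The I/R grafts were in the same order for the neutrophil markers (9.001, 9.67 and 9.36, against 8.44 and 8.61). That order was also the one of the endothelial markers (9.92, 10.09 and 10.004), the atrial markers (8.03, 9.86 and 8.87) and the mast cell and platelet markers (7.29, 7.90 and 7.40). Genes of this list that leukocytes also make include Ptpn6 and Cd44, and the part of such cells was not tested. Itgav, the integrin alpha V chain, had 0.41 (SE 0.045), Cd44, a receptor of hyaluronan that binds VEGF isoforms in some variants, 0.96 (SE 0.17), Nrarp, a Notch-induced gene, 0.44 (SE 0.11), and Sdc1, a heparan sulfate proteoglycan, 0.53 (SE 0.14). Of 25 measured signal transducers downstream of the receptors, 16 were higher, 8 lower and 1 equal in mean signal, 3 passed upward and 2 downward, and the median was 0.10. Pik3r1, the regulatory subunit of PI3 kinase, had -0.80 (SE 0.16) and Mapkapk2, a kinase under p38, had -0.23 (SE 0.048), whereas Sphk1, which makes sphingosine 1-phosphate, had 0.97 (SE 0.28) and Akt1 had 0.31 (SE 0.094). Among 15 semaphorins and plexins, which share the neuropilins with the VEGF ligands, 10 were higher and 5 lower in mean signal, 1 passed upward and 0 downward, and the median was 0.04. Plxna1, a plexin that pairs with neuropilins, had 0.32 (SE 0.025). Plxnd1 (0.57, SE 0.21), Sema3f (0.55, SE 0.23) and Nrcam (-0.14, SE 0.085) did not pass.

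Regulators of VEGF genes ran both ways. Of 22 measured, 11 were higher, 10 lower and 1 equal in mean signal, 3 passed an unadjusted p of 0.05 upward and 4 downward, and the median was 0.02. Ppargc1a, a coactivator that drives mitochondrial genes and, in mouse muscle, Vegfa, was at 9.39, 8.48 and 8.94 in I/R 1 to 3, against 10.63 and 10.35 in non-I/R 1 and 2 (log2 fold change -1.55, SE 0.32, limma adjusted p = 0.282), the only regulator at the 2-fold criterion. Vhl, which targets HIF for degradation, had 0.32 (SE 0.050), Atf4, the stress factor, 0.87 (SE 0.19), and Stat3 -0.21 (SE 0.053). Hif1a (0.18, SE 0.12, limma adjusted p = 0.495) and Epas1 (-0.33, SE 0.11, limma adjusted p = 0.324), which encode the HIF alpha chains, are named because the promoter windows were searched for the HIF core. Of 19 hypoxia-inducible genes, 9 were higher, 9 lower and 1 equal in mean signal, 3 passed upward and 2 downward, and the median was 0. The heme oxygenase Hmox1 had 0.91 (SE 0.22), the glucose transporter Slc2a1 0.69 (SE 0.17) and Ankrd37 0.32 (SE 0.099), against -0.52 (SE 0.14) for the collagen prolyl hydroxylase P4ha2. These genes thus had no common direction.

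Among 19 proteins that bind or release VEGF outside the cell, 11 were higher and 8 lower in mean signal, 4 passed an unadjusted p of 0.05 upward and 1 downward, and the median was 0.12. The list mean was 9.68, 9.84 and 9.69 in I/R 1 to 3, against 9.48 and 9.50 in non-I/R 1 and 2. The I/R grafts were again in the order of the neutrophil, the endothelial, the atrial, and the mast cell and platelet markers, whose part was not tested. Ccn1, a matrix protein that binds integrins, was at 11.45, 11.96 and 12.20 in I/R 1 to 3, against 9.61 and 10.62 in non-I/R 1 and 2 (log2 fold change 1.76, SE 0.42, limma adjusted p = 0.286). Mmp9, a gelatinase of neutrophils and other cells that can release VEGF from matrix, had 1.45 (SE 0.39, limma adjusted p = 0.290), and both met the 2-fold criterion. Fn1, fibronectin, had 0.77 (SE 0.20) and Dcn, decorin, had -0.72 (SE 0.23). Among 11 genes for the processing of VEGF-C and VEGF-D, 4 were higher and 7 lower in mean signal, 0 passed upward and 1 downward, and the median was -0.03. Adamts3, the protease that cleaves VEGF-C, had -0.52 (SE 0.14). Pcsk7 (0.23, SE 0.087), Svep1 (-0.71, SE 0.28) and Ctsd (-0.10, SE 0.042) did not pass. Single grafts moved some of these medians. Without non-I/R 1 that of the transducers was 0.0080, and without I/R 2 that of the binding proteins was 0.0015. Of the pathway genes named here, none had a limma adjusted p under 0.27.

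**Figure D4:**
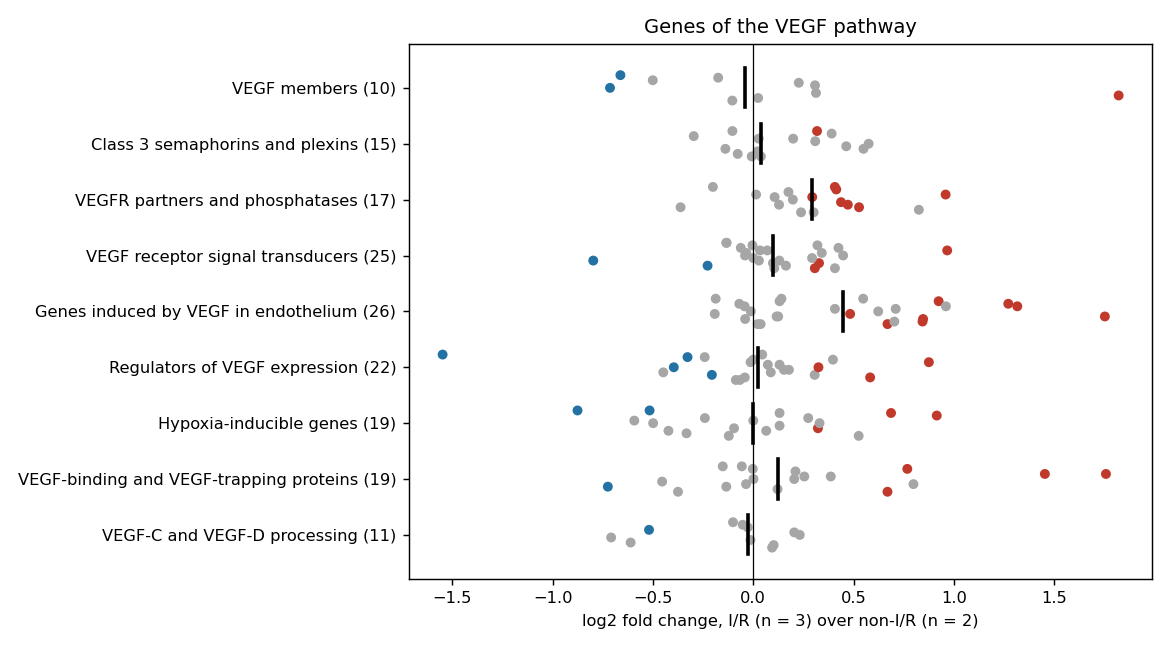
Log2 fold change, I/R minus non-I/R, of each measured gene in the lists of the VEGF pathway, with the number measured in parentheses, the list median as a black bar, and red or blue for an unadjusted limma p under 0.05. Genes induced by VEGF lie mostly above 0 (median 0.44), as do partners of the receptors (0.29), and hypoxia-inducible genes lie on both sides (0). The lists were written with earlier results of these data known.

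The genes whose pattern over the 5 grafts was most like that of a member were found by the root mean square difference of values centred on their means, among 21788 other probe sets, for members with an absolute log2 fold change of at least 0.5. With 5 values per gene such likeness is only a description. For Vegfb they were Ndufs1, a subunit of mitochondrial complex I (0.013), Sobp (0.017) and Mccc1, a mitochondrial carboxylase subunit (0.032). For Nrp1 they were Hmcn1 (0.039), the endothelial junction protein Jam2 (0.044) and the phosphatase Ptpn3 (0.045). For Vegfd they were the complement subunit C1qc, made by macrophages (0.045), Flvcr2 (0.051) and Aoah, which inactivates bacterial lipopolysaccharide (0.056). Pgf had no neighbour as close: Apln was nearest (0.30), then Plaur (0.32) and the receptor tyrosine kinase Kit (0.33).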

How the data were processed

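Gene expression was measured in 5 heart grafts, with 1 array for each graft. The table the authors deposited holds log2 values for 35556 probe sets. Partek and RMA are named, with no version, in the processing notes of the submitters. Background correction and a common distribution of the arrays, as RMA gives them, can hide a shift common to many genes and narrow large differences. A genome build is not given in the sources used here. Names came from the platform annotation, updated by gene ID through a RefSeq table of GRCm38.p6 (21698 IDs, 99.6%, found), with 21789 probe sets of a single symbol, 1621 of several and 12146 not listed. Groups were compared with limma 3.58.1 (statmod 1.5.0) in R 4.3.3 on the values as deposited, with Benjamini-Hochberg adjustment. Single values were compared with exact two-sided permutation tests in Python 3.11.15 (pandas 2.3.3), and plots were drawn with matplotlib 3.10.9. The steps were tested on simulated data.

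The members, lists and tests were chosen with earlier results of these data known, and the pairs of members within a graft and the HIF and GC box searches were added later. For gene lists, the probe set with the highest mean stood for a gene, and 4 partner, 2 transducer, 4 induced, 1 regulator, 1 hypoxia, 2 binding and 1 processing genes are also in another list. Listed genes without a probe set of a single symbol were left out of the counts, and some items are not reported here. Named are all members, in each pathway list the genes at the 2-fold criterion and the 4 with the smallest unadjusted p, the 3 nearest genes of each member changed by 0.5 or more, and the brightest marker of each list. Prox1, Hif1a and Epas1 were added after their values were seen. Alternatives were the methods' t-test, other eBayes settings, array weights, other normalizations, filters on dim or tied probe sets, all probe sets, and leaving out grafts. Other assays of the study (miRNA arrays, RT-PCR, histology, Western blots) were not used here.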

Additional observations from a re-analysis of the deposited data

How the results depend on the processing

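With 3 and 2 arrays, the number of arrays limits the precision of every value, and a probe set's signal over background is not known from the deposited table. No paired analysis was possible because the labels give no replicate numbers. Those used here only name the grafts, in accession order. Leaving out each graft in turn gave between 0 and 2 members higher and between 0 and 2 lower at an unadjusted p under 0.05, between 0 and 1 higher at the 2-fold criterion, and between 1898 (without non-I/R replicate 1) and 4147 (without non-I/R replicate 2) probe sets at that p and between 81 and 492 at the 2-fold criterion over all. Between 2 and 4 members lay wholly above and between 2 and 5 wholly below. The 4 came without I/R replicate 1, and the 5 without non-I/R replicate 2, which leaves a single non-I/R graft. Groups of fewer grafts are more easily separated, and shares over all probe sets were not computed with a graft left out. These counts of separated members therefore cannot be read as an excess. With the methods' t-test 0 members were lower, and 2014 probe sets passed over all. Without non-I/R replicate 1 and I/R replicate 2 together, an alternative chosen after seeing the data, 1 member was lower, 0 met the 2-fold criterion, and 26 probe sets did over all. The log2 fold change of Vegfc ran from -0.034 (without I/R replicate 2, and also without both) to 0.070 over single grafts left out. Against the marker mean, Vegfd ran from -0.15 (without non-I/R replicate 2) to 0.41, with -0.04 without I/R replicate 1, and Vegfb from -0.22 to 0.025 (without I/R replicate 2). The median of the processing list was 0.00085 with arrays centred on their median and 0.0201 with quantile normalization, and that of the regulators ran from -0.0094 (without I/R replicate 3) to 0.053 over single grafts left out. Why these values turned was not tested. Each member kept its direction under array centring, quantile normalization and cyclic loess. The median of all probe sets lay between -0.01 and 0 with single grafts left out. The smallest adjusted p of a member under any alternative was 0.0802, for Pgf among probe sets without tied values, by limma.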
